A study of Mus musculus with 9 samples.

Results

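The solute carriers (gene symbols beginning with Slc) are the membrane transporters that move amino acids, sugars, ions, metals, vitamins and metabolites into cells and between their compartments. Their expression was examined in colon organoids, cultures of epithelial cells grown from colonic crypts. Members were chosen by level, as the protein-coding genes with a solute carrier symbol in GENCODE M21 and a mean normalised read count of 50 or more over 9 libraries. Of the 369 such genes in the table, 174 were members. A further 8 passed this level but were left out by name, and 1 of those left out lay under it. Another 186 lay under the level, 62 of them at 0 in every library. Just inside the threshold were Slc22a21 with a mean of 52.5, Slc18a1 with 54.5 and Slc35f2 with 55.8, and just outside it Slc9b2 with 48.7, Slc35g2 with 48.6 and Slc25a29 with 45.99. Since members were selected on their mean level, the levels below are a description. The differences between treatments and genotypes were not used in the choice. However, 6 members (among them Slc2a13, Slc8a1, Slc10a5, Slc22a21 and Slc35f2) had a mean under 50 in at least 1 group and passed through the groups where they were higher.

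The organoids came from mice with an aryl hydrocarbon receptor (AHR) deleted in the epithelium (AHR KO), which carry a floxed Ahr allele and Cre driven by the Villin promoter, and from wild-type (WT) controls, on C57BL/6. AHR is a transcription factor that is activated by small molecules, and FICZ is one of its high-affinity ligands. The culture medium was WENR, which contains Wnt-3A, EGF, Noggin and R-spondin-1 and maintains stem cells, and the organoids received DMSO as solvent or 5 nM FICZ for 4 h. The groups were WT DMSO (n = 2), WT FICZ (n = 3), AHR KO DMSO (n = 2) and AHR KO FICZ (n = 2).

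Colonic epithelium depends on solute carriers on both of its faces. Apical exchangers and cotransporters take up sodium, chloride, short-chain fatty acids and vitamins from the lumen, while basolateral carriers pass nutrients to the blood. Inside the cell, the SLC25 family links the mitochondrial matrix to the cytosol and the SLC35 family brings nucleotide sugars into the Golgi for the glycosylation of mucins. The SLC39 proteins bring zinc into the cytosol and the SLC30 proteins remove it.

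The total of the deposited normalised counts ranged from 23177058 to 25033827 over the libraries, and the members took 0.981 to 1.12% of that signal. Libraries of 1 group correlated at r = 0.986 to 0.991 across genes, which are not independent replicates, against 0.964 to 0.983 for libraries of different groups. Ahr counts were higher in the libraries labelled AHR KO (1346 to 1443) than in those labelled WT (783 to 858). A count per gene does not show whether exons are missing, so every direction between genotypes rests on the labels. Epithelial markers summed to between 303470 and 330710 in every library, most of it from keratins and Cdh1. Among them Epcam and Krt20, a marker of mature cells, were lower in AHR KO, by 0.43 and 0.72 on the log2 scale under DMSO (adjusted p = 0.00846 and 0.0281) and by 0.46 and 0.95 under FICZ (adjusted p = 0.00145 and 0.00207), and Krt18 was higher by 0.38 under FICZ. Stromal and endothelial markers summed to no more than 5.27. Nerve markers summed to 66.1 to 97.3 in WT libraries and 19.7 to 47.2 in AHR KO libraries, most of it Elavl4, which was called lower in AHR KO under FICZ (log2 difference -2.10, adjusted p = 0.00661). Immune markers summed to 475 to 712, 3 of the 6 being at 0 in every library. Absorptive cell markers (Car1, Car4, Aqp8, Fabp2, Alpi and Guca2a) summed to 1638 to 2679 in WT libraries and 332 to 472 in AHR KO libraries. Car1 made up nearly all of this sum, and apart from Guca2a the others were too low to be tested. The colon identity genes Cdx1, Cdx2 and Hoxb13 were lower in AHR KO under both treatments. Their part in the results was not tested, and in bulk RNA fewer cells of a type cannot be told apart from less RNA per cell.

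Promoter sequences are shown for the pair of members that rose at least 2-fold with FICZ in WT, Slc25a48 and Slc16a11. Each window runs from 250 bases before to 50 after a RefSeq start site on GRCm38.p6, on the plus strand, at chr13:56438105-56438404 for Slc25a48 and at chr11:70213660-70213959 for Slc16a11. Capitals mark GCGTG, the core of the dioxin response element to which AHR and its partner ARNT bind, on either strand.

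Slc25a48: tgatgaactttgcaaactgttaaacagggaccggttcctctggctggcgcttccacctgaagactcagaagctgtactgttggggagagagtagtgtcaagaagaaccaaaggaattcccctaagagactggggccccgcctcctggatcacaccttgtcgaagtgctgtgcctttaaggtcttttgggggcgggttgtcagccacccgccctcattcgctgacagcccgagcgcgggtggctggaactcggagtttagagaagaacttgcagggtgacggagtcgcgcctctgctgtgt

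Slc16a11: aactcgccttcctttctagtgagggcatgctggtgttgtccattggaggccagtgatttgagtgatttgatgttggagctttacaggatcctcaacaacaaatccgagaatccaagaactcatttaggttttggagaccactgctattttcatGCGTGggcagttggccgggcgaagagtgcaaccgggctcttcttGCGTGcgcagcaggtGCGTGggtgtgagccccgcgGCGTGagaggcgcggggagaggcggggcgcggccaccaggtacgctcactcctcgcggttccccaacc

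The Slc16a11 window held GCGTG at 4 places, starting 97, 53, 38 and 18 bases before the start site, whereas the Slc25a48 window held none on either strand. Windows were found for 129 of the 174 members, some with several start sites (176 windows). Of these, 51.7% held GCGTG, against 32.4% of all 32851 windows in the RefSeq table. Member windows were also richer in GC, with a mean of 61.8% against 53.8%. The longer core TTGCGTG occurred in 3 of 176 member windows and 381 of all windows. The metal response element, at which zinc acts on transcription through Mtf1, occurred in 34.1% and 25.7%, and TGATGCAA, an amino acid response element, in 2.27% and 0.895%. A match is a description of these letters, not a binding site.

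Members covered 41 families, and 170 were carriers while 4 (Slc4a1ap, Slc7a6os, Slc9a3r1 and Slc9a3r2) bear the name of a carrier they bind or adjoin. Their mean counts ran from 52.5 to 15663 with a median of 713, and 73 had a mean of 1000 or more. Per kilobase of transcript, the highest level was 12631 for Slc25a5, the adenine nucleotide translocase that exchanges ADP for ATP across the inner mitochondrial membrane. It was followed among mitochondrial carriers by Slc25a1, the citrate carrier, at 3072. Reads of Slc25a5 may be shared with the processed pseudogene Gm5560, which is 98.3% identical over 887 bases. Among metal carriers the highest levels per kilobase were 2727 for Slc39a4, the apical zinc importer, and 1839 for Slc39a1, which shares sequence with its pseudogene. Slc35c1, which carries GDP-fucose into the Golgi, stood at 2307, and Slc44a1, a choline transporter, at 2151. Slc6a6, the taurine transporter, was the highest amino acid carrier at 1613, ahead of the glutamine transporter Slc38a2 at 1066. Ion carriers were led by the anion exchanger Slc4a2 at 719 and the sodium bicarbonate cotransporter Slc4a7 at 517, and sugar carriers by Slc50a1 at 508. The lowest level per kilobase was 3.36, for the plasma membrane sodium-calcium exchanger Slc8a1.

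The response to FICZ in WT organoids was examined first. Slc25a48, a mitochondrial carrier linked to choline import, doubled, and Slc16a11, a proton-linked monocarboxylate transporter, rose from a low level. Most other changes were smaller. Of 174 members, 58 were called higher and 11 lower (limma, Benjamini-Hochberg adjusted p under 0.05 over all 12741 genes tested). These 69 are 39.7% of the members, against 30.8% of all genes tested. Higher calls were 33.3% of members against 15.1% of all genes, and lower calls 6.32% against 15.7%. The median log2 change of the members was 0.18, against -0.01 over all genes, and the median absolute change of the called members was 0.37. The groups did not overlap for 116 members (66.7%), against 56.4% of all genes.

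Slc25a48 (ENSMUSG00000021509, chromosome 13, 56438355 to 56474239 on GRCm38) had 2174 and 2121 normalised counts in WT DMSO and 4161, 4428 and 4332 in WT FICZ. In AHR KO it had 2865 and 2821 under DMSO and 2782 and 2795 under FICZ. All 3 WT FICZ libraries thus stood above every other library, and both AHR KO groups lay between the WT groups. The log2 change in WT was 1.0 ± 0.05 (SE, adjusted p = 2.11e-06), and in AHR KO it was -0.03 ± 0.05 (adjusted p = 0.751).

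Slc16a11 (chromosome 11, 70212752 to 70216417) had 70.5 and 76.6 counts in WT DMSO and 206, 179 and 187 in WT FICZ. In AHR KO it had 49.0 and 82.2 under DMSO and 113 and 153 under FICZ. FICZ libraries were above DMSO libraries in both genotypes, and WT FICZ stood above AHR KO FICZ without overlap, although this difference between genotypes was not called (-0.53, adjusted p = 0.122). The log2 change with FICZ was 1.36 ± 0.22 for WT (adjusted p = 0.00169) and 1.04 ± 0.24 for AHR KO (adjusted p = 0.0162), and the difference between these was 0.32 ± 0.33 (adjusted p = 0.914). In AHR KO the call was lost without AHR KO DMSO replicate 1, without AHR KO FICZ replicate 3, and with a GC and length trend removed, the adjusted p reaching 0.168.

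**Figure D1:**
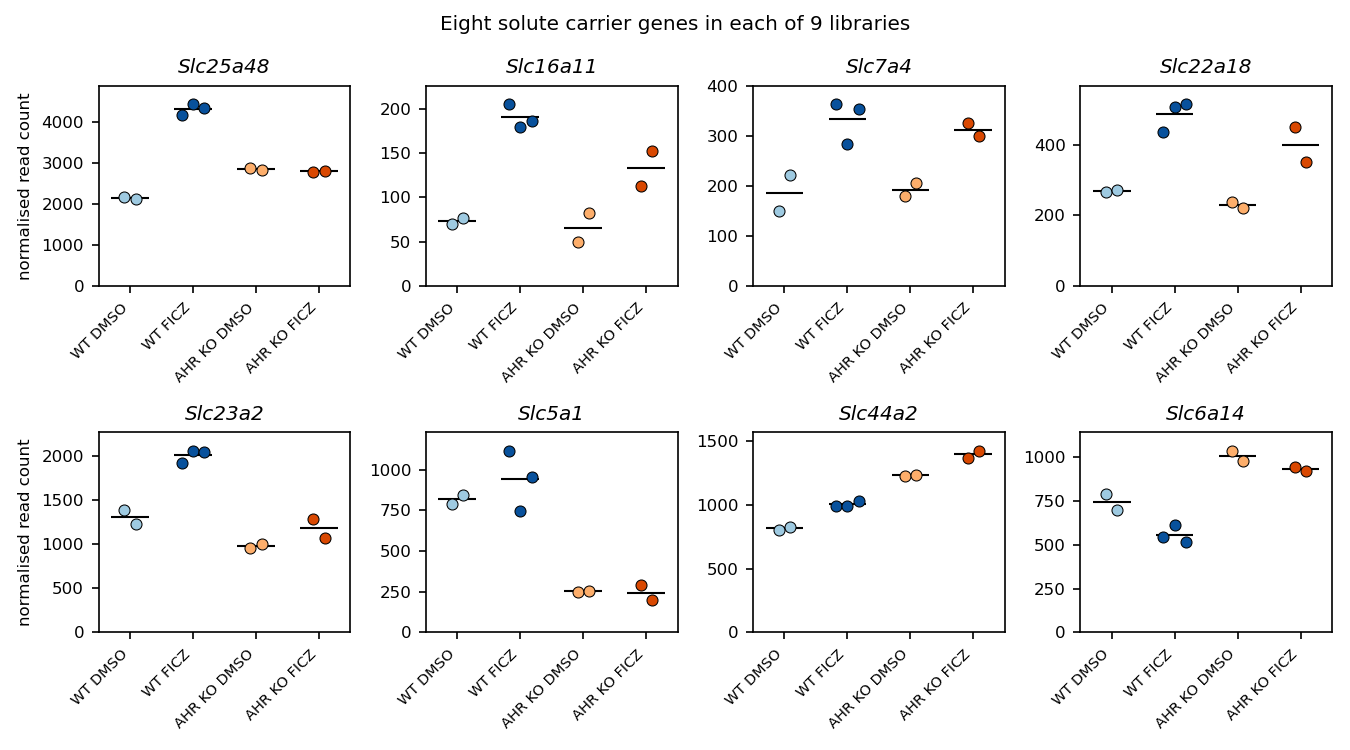
Normalised read counts (vertical axes, from 0) of 8 solute carrier genes in each library (points) of the 4 groups, with a line at each group's mean. Slc25a48 was high only in the 3 WT FICZ libraries (4161 to 4428), Slc16a11, Slc7a4 and Slc22a18 were higher with FICZ in both genotypes, and Slc5a1 was lower and Slc44a2 higher in AHR KO under both treatments.

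Carriers of organic ions, monocarboxylates, vitamins and lipids were called higher in 13 and lower in 1 of 33 in WT. Slc22a18, an organic cation transporter of an imprinted locus, had 268 and 273 counts in WT DMSO and 437, 510 and 517 in WT FICZ (log2 change 0.85, adjusted p = 0.00105). Slc23a2, a sodium-dependent vitamin C transporter, had 1391 and 1237 in WT DMSO and 1926, 2066 and 2054 in WT FICZ (log2 change 0.62, adjusted p = 0.000763). The fatty acid transport proteins Slc27a1 and Slc27a4 rose by 0.69 and 0.62 on the log2 scale (adjusted p = 0.000775 and 0.000163). The groups of each of these genes were separate. The plasma membrane carnitine transporter Slc22a5 rose by 0.58 (adjusted p = 0.00231), although it is 98.3% identical to Slc22a21 over 831 bases and reads may be split between them. The folate carrier Slc19a1 rose by 0.48 (adjusted p = 0.00751) and the choline transporter family member Slc44a4 by 0.33. Slc44a3, of the same family as Slc44a4, fell by 0.37 (adjusted p = 0.00575). The monocarboxylate transporter Slc16a3 changed by 0.09 (WT) and 0.47 (AHR KO) on the log2 scale, without a call, and Slc46a1, the proton-coupled folate transporter, by 0.30 and 0.19. The Slc16a3 change in AHR KO came from replicate 1, with 2266 and 1216 counts under FICZ against 1182 and 1222 under DMSO.

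Amino acid carriers were called higher in 11 and lower in 1 of 23 in WT. Slc7a4, of the cationic amino acid transporter family, had 150 and 222 counts in WT DMSO and 364, 285 and 354 in WT FICZ (log2 change 0.86, adjusted p = 0.00475). The glycine transporter Slc6a9 rose by 0.59 (adjusted p = 0.00285). The study used a stranded library kit but does not state whether reads were counted by strand, and 30.2% of the Slc6a9 exonic bases and 13.3% of those of Slc7a4 lie under exons on the opposite strand. Slc6a6 rose by 0.30 (adjusted p = 0.00256), and Slc3a2, the heavy chain that carries several amino acid transporters to the cell surface, by 0.29 (adjusted p = 0.00299). The light chain Slc7a5, with a log2 change of 0.20, the arginine transporter Slc7a1 with 0.11, the neutral amino acid exchanger Slc1a5 with 0.17 and Slc38a2 with 0.13 were not called. Slc6a14, which takes up neutral and cationic amino acids, was the one that fell. It had 791 and 697 counts in WT DMSO and 546, 612 and 515 in WT FICZ (log2 change -0.41, adjusted p = 0.00652), and this call was lost without WT DMSO replicate 2.

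Of 24 metal carriers, 7 were called higher and 4 lower in WT. Slc39a10, a zinc importer of the plasma membrane, had 2745 and 2642 counts in WT DMSO and 1904, 1982 and 1996 in WT FICZ (log2 change -0.46, adjusted p = 0.000271). Slc30a4, which loads zinc into vesicles, fell by 0.30, the mitochondrial zinc transporter Slc30a9 by 0.29 and the importer Slc39a6 by 0.24. In the other direction, Slc39a4 had 6371 and 6147 counts in WT DMSO and 7548, 8422 and 8752 in WT FICZ (log2 change 0.39, adjusted p = 0.00202). With a GC and length trend removed, Slc39a4 changed by 0.17 in WT and was not called (adjusted p = 0.117). Slc30a1, the zinc exporter of the plasma membrane, rose by 0.30 (adjusted p = 0.0186). The iron importer Slc11a2 and the iron exporter Slc40a1 had log2 changes of 0.23 and -0.11 and were not called.

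Among the 34 mitochondrial carriers, 8 were called higher and 2 lower in WT, a share near the 30.8% of all genes. Apart from Slc25a48, the higher calls ranged from 0.26 to 0.45 on the log2 scale, among them Slc25a38, the mitochondrial glycine carrier, with 0.43 (adjusted p = 0.0253). Slc25a1 had 5630 and 5730 counts in WT DMSO and 4418, 4740 and 4854 in WT FICZ, without overlap (log2 change -0.28, adjusted p = 0.00562). Slc25a24, an ATP-magnesium and phosphate carrier, fell by 0.30 (adjusted p = 0.00668). Slc25a5 had a log2 change of 0.09 and the carnitine-acylcarnitine carrier Slc25a20 one of 0.13, and neither was called.

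Carriers of nucleosides and nucleotide sugars were called higher in 10 and lower in 1 of 28. Slc35f6 had 1071 and 1073 counts in WT DMSO and 1746, 1703 and 1597 in WT FICZ (log2 change 0.65, adjusted p = 0.000328), and Slc35e4 rose by 0.67 (adjusted p = 0.000421). Slc35a3, which brings UDP-N-acetylglucosamine into the Golgi, fell by 0.34 (adjusted p = 0.00919). The nucleoside transporter Slc29a1 had a log2 change of -0.23 and was not called.

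Ion carriers were called higher in 6 and lower in 1 of 18. Slc8b1, the mitochondrial sodium-calcium exchanger, rose by 0.79 (adjusted p = 0.0134), and Slc12a9, of the cation-chloride cotransporter family, by 0.74 (adjusted p = 0.00368). Slc4a7 fell by 0.34 (adjusted p = 0.0178). Slc4a4, the basolateral sodium bicarbonate cotransporter, and the phosphate transporter Slc20a1 had log2 changes of -0.19 and -0.16 and were not called. Of 10 sugar and sodium-coupled carriers, 3 were called higher, among them Slc50a1 (log2 change 0.40) and Slc45a3 (0.31). Beside the class counts in WT, 30.8% of all genes tested were called, 15.1% higher and 15.7% lower. Of the 4 genes named for a carrier, Slc4a1ap, which encodes the adaptor kanadaptin, fell by 0.48 (adjusted p = 0.00325).

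Of the 23 named calls in WT, 8 were lost without WT DMSO replicate 2 (Slc4a7, Slc6a14, Slc8b1, Slc25a24, Slc30a9, Slc35a3, Slc39a6 and Slc44a3), with adjusted p-values up to 0.207. Without WT DMSO replicate 3, those of Slc4a7, Slc8b1, Slc30a4 and Slc39a6 were lost (up to 0.16), and 2 each were lost without WT FICZ replicate 1 (up to 0.0682) or 3 (up to 0.0916). The member count was 37 (21.3%) without WT DMSO replicate 2 and 45 (25.9%) without replicate 3, against 15.6% and 17.8% of all genes. The higher calls of Slc16a11, Slc25a48, Slc7a4, Slc22a18, Slc27a1, Slc35f6, Slc23a2, Slc27a4 and Slc6a9, and the lower calls of Slc4a1ap, Slc39a10 and Slc25a1, held under all 20 alternatives run.

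**Figure D2:**
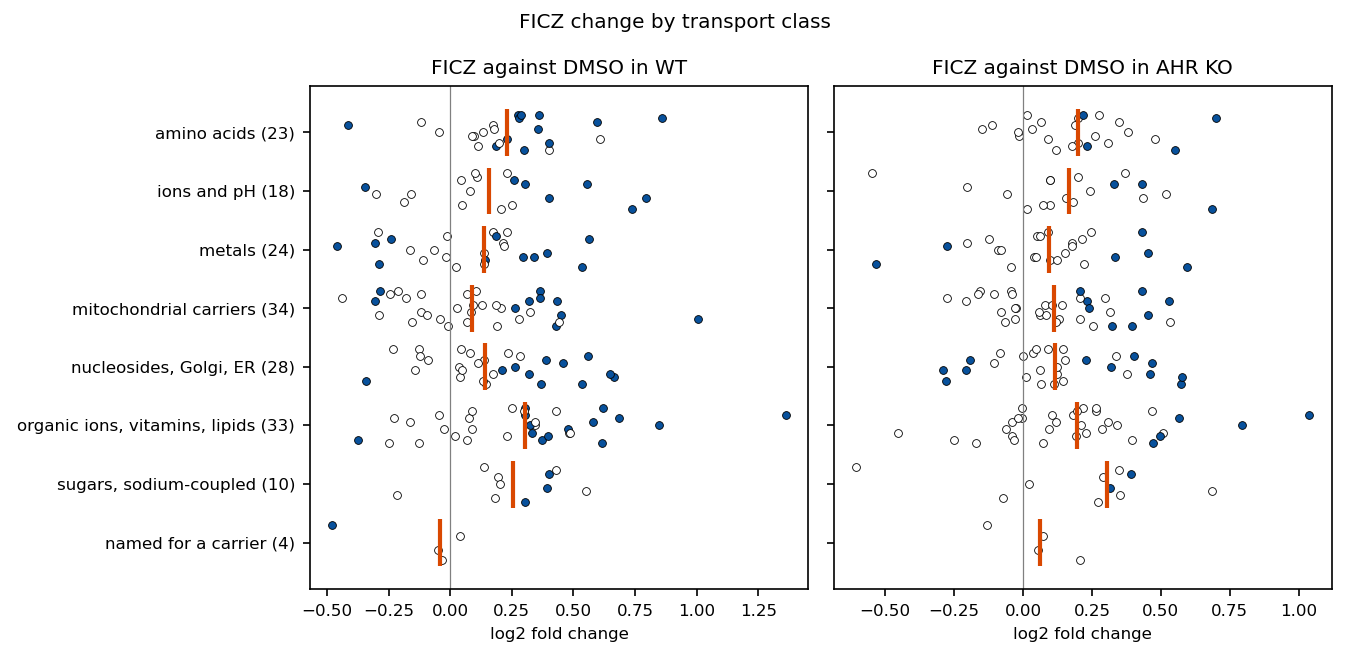
Log2 fold change with FICZ (horizontal axes) of each member (points, filled where called) by transport class, with the number of members in parentheses and a bar at the class median, in WT (left) and AHR KO (right). In WT the medians of the 7 carrier classes lay between 0.09 (mitochondrial carriers) and 0.30 (organic ions, vitamins and lipids).

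The same comparison in AHR KO organoids shows the change with FICZ in the libraries labelled as lacking the receptor. Slc16a11, Slc22a18 and Slc7a4 had the highest fold changes among the members called and Slc25a48 was not one of these. In all, 33 members were called higher and 6 lower. These 39 are 22.4% of the members, against 19.7% of all genes tested (higher calls 19% against 10.2%, lower calls 3.45% against 9.48%). The median log2 change of the members was 0.14, against -0.01 over all genes, and the groups did not overlap for 115 members (66.1%), against 62.5% of all genes. In AHR KO the number called was 8 without AHR KO DMSO replicate 1, 17 without AHR KO DMSO replicate 3 and 19 without AHR KO FICZ replicate 3. Calls over all genes fell in the same fits, to 3.29%, 9.86% and 9.55%.

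Slc22a18 had 239 and 221 counts in AHR KO DMSO and 453 and 351 in AHR KO FICZ (log2 change 0.79, adjusted p = 0.00477). Slc7a4 had 180 and 205 and then 327 and 300 (log2 change 0.70, adjusted p = 0.0285). Slc12a9 rose by 0.69 and Slc39a3, a zinc importer, by 0.60. The amino acid carrier Slc36a1, found on lysosomes, rose by 0.55, Slc25a38 by 0.53 and the riboflavin transporter Slc52a2 by 0.49. Slc39a4 had 6233 and 6522 counts in AHR KO DMSO and 9046 and 8439 in AHR KO FICZ (log2 change 0.45, adjusted p = 0.0037). With a GC and length trend removed, Slc39a4 changed by 0.22 in AHR KO and was not called (adjusted p = 0.139). In the opposite direction, Slc30a9 had 1989 and 1947 and then 1296 and 1425 (log2 change -0.53, adjusted p = 0.00424). Of the 18 calls in AHR KO followed under the alternatives, which leave out Slc39a4, it was the one that held under all. Slc39a10 fell by 0.28 (adjusted p = 0.00811), and the Golgi carriers Slc35a1, for CMP-sialic acid, and Slc35a3 by 0.29 and 0.28. Of the 18 named calls, 14 were lost without AHR KO DMSO replicate 1 (adjusted p up to 0.251) and 11 without AHR KO FICZ replicate 3 (up to 0.265). Counted separately, 7 were lost without AHR KO DMSO replicate 3 (up to 0.163), 4 without AHR KO FICZ replicate 1 (up to 0.109) and 2 to 5 without single WT libraries other than WT FICZ replicate 2 (up to 0.064).

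By class, the carriers of nucleosides and nucleotide sugars were called higher in 7 and lower in 4 of 28 in AHR KO, and the mitochondrial carriers higher in 8 of 34 with none lower. Metal carriers were called higher in 4 and lower in 2 of 24, amino acid carriers higher in 4 of 23, and organic ion, vitamin and lipid carriers higher in 5 of 33. Against these class counts, 19.7% of all genes tested were called in AHR KO, 10.2% higher and 9.48% lower. Members called in both genotypes numbered 30, of which 27 were higher and 3 lower in both. They were 43.5% of the members called in WT and 76.9% of those called in AHR KO, close to the 49.4% and 77.3% over all genes tested. A call in 1 genotype and not in the other is not a test of the difference, which is given by the interaction below.

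**Figure D3:**
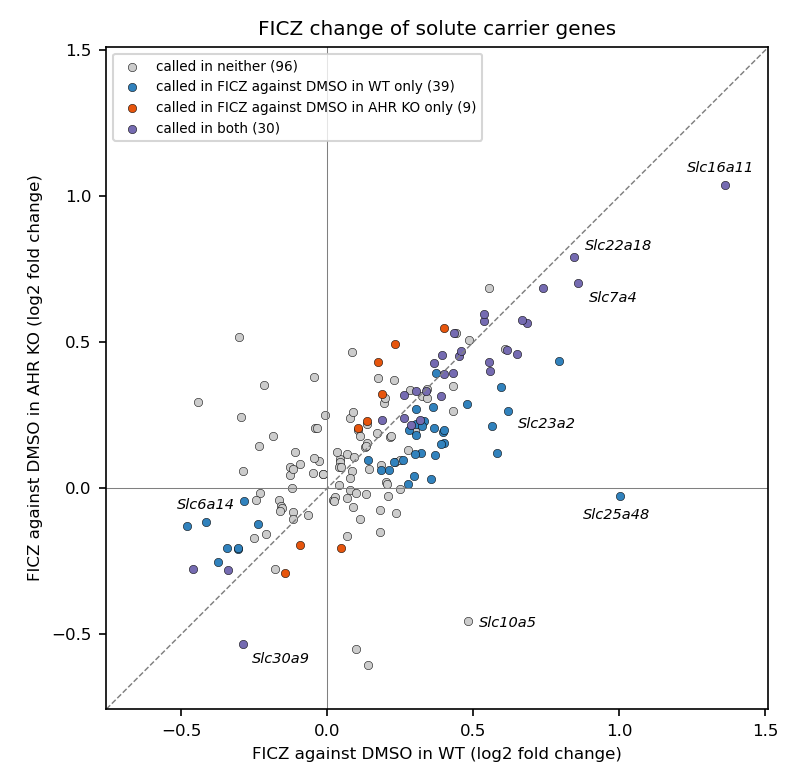
Log2 fold change with FICZ in WT (horizontal axis) and in AHR KO (vertical axis) for each of 174 members (points), coloured by the comparisons in which they were called, with a dashed line where both changes are equal. Slc25a48 lies at 1.0 in WT and -0.03 in AHR KO, and 30 members were called in both.

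The change with FICZ moved with the base composition of the transcripts. With all genes split into 4 equal bins by GC content, the median log2 change of the members in WT rose from -0.12 in the lowest bin through 0.05 and 0.24 to 0.34 in the highest, and that of all genes from -0.17 to 0.23. In AHR KO the members rose from -0.10 to 0.35 and all genes from -0.19 to 0.25. Members had a median GC content of 50.8%, against 49.4% for all genes tested. When a smooth trend with GC content and transcript length was removed from each library, the members called in WT went from 69 to 49 (43 higher and 6 lower, 36 of them among the 69). Those called in AHR KO went from 39 to 7 (4 higher and 3 lower, 4 of them among the 39). All genes called went from 3928 to 2309 in WT and from 2509 to 692 in AHR KO. After this step 28.2% of the members were called in WT, against 18.2% of all genes. In AHR KO the share of members was then 4.02%, below the 5.45% of all genes. Between genotypes the same step gave 29 called members under DMSO (20 higher and 9 lower) and 56 under FICZ (25 higher and 31 lower), 24 and 51 of them among those called without it, with 9.74% and 21.5% of all genes called.

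In WT, organic ion, vitamin and lipid carriers kept 10 of their 14 calls with the trend removed and amino acid carriers 8 of 12. Metal carriers kept 4 of 11, mitochondrial carriers 2 of 10 and ion carriers 3 of 7. Slc16a11 then changed by 0.90 on the log2 scale in WT (adjusted p = 0.0142), Slc25a48 by 0.88 (adjusted p = 1.02e-05) and Slc23a2 by 0.62 (adjusted p = 0.00132). Of the 23 named calls in WT, those of Slc8b1, Slc12a9, Slc6a14, Slc44a3, Slc4a7, Slc35a3, Slc30a4, Slc25a24, Slc30a9 and Slc39a6 were lost. Outside these 23, the WT calls of Slc39a4 (then 0.17, adjusted p = 0.117), Slc25a38 (0.26, adjusted p = 0.173) and Slc45a3 (0.13, adjusted p = 0.272) were lost too. Other members were called in WT only after the step. Among them were Slc38a2 (then 0.25, adjusted p = 0.0173) and Slc29a1 (-0.39, adjusted p = 0.0307), not called before it. In AHR KO, 17 of the 18 named calls were lost (adjusted p 0.0529 to 0.626), Slc22a18 with a change of 0.57 being closest to the threshold. A lost call was not always a smaller change. Slc37a3 in AHR KO was at -0.21 before and after the step (adjusted p = 0.065 after it). Slc39a6 in WT went from -0.24 to -0.21 (adjusted p = 0.06 after it).

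**Figure D4:**
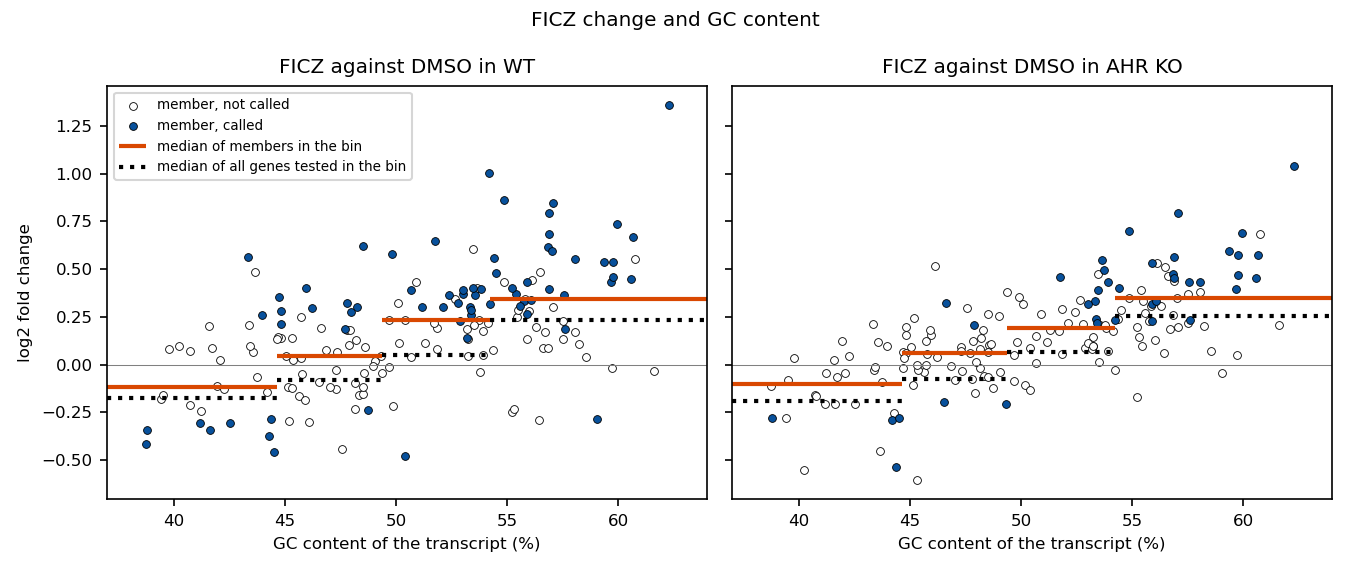
Log2 fold change with FICZ (vertical axes) of each member (points, filled where called) against the GC content of its transcript (horizontal axes, %), in WT (left) and AHR KO (right), with medians of members (solid) and of all genes tested (dotted) in 4 bins of GC content. Member medians rose from -0.12 to 0.34 in WT and from -0.10 to 0.35 in AHR KO.

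The interaction asks which members responded to FICZ differently in the 2 genotypes. Slc25a48 was the only member called (0.575% of members, against 0.447% of all genes tested, with 0.0706% of genes called in the other direction), with a change in WT that exceeded that in AHR KO by 1.03 ± 0.07 (SE, log2, adjusted p = 0.000155). It was called in each of the 19 alternatives that could be fitted, with values of 1.01 to 1.09 and adjusted p-values up to 0.00259. No other member was called, and the differences that follow are given as values only. Slc10a5, of the bile acid transporter family, had 76.9 and 72.6 counts in WT DMSO and 108.9, 99.8 and 106.1 in WT FICZ. In AHR KO it had 60.2 and 43.95 under DMSO and 39.2 and 35.5 under FICZ, and the difference between the changes was 0.94 ± 0.28 (adjusted p = 0.346). For Slc22a5 and Slc23a2 the difference was 0.46 (adjusted p = 0.408) and 0.36 (adjusted p = 0.487). In the other direction it was -0.74 for Slc25a14 (adjusted p = 0.541), which was chosen after its value was seen, -0.37 for Slc4a4 (adjusted p = 0.487) and -0.24 for Slc25a1 (adjusted p = 0.513).

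Genotypes were then compared under DMSO. Slc5a1, the sodium-glucose cotransporter SGLT1, was the member with the lowest fold change, and the choline transporter Slc44a2 was among those higher. In AHR KO, 18 members were called higher and 6 lower, 13.8% of the members against 9.05% of all genes tested (higher calls 10.3% against 4.21%, lower calls 3.45% against 4.83%). The median log2 difference was -0.02, against -0.01 over all genes, and the groups did not overlap for 110 members (63.2%), against 58.0% of all genes. Fitted to the DMSO libraries alone, 15 were higher and 16 lower, 17.8% of the members against 12.7% of all genes.

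Slc5a1 (chromosome 5, 33104219 to 33162870) had 791 and 848 counts in WT DMSO, 249 and 257 in AHR KO DMSO, 1118, 746 and 958 in WT FICZ and 291 and 198 in AHR KO FICZ. Every AHR KO library was below every WT library, while FICZ and DMSO libraries overlapped within each genotype. The log2 difference was -1.69 ± 0.20 under DMSO (adjusted p = 0.000754) and -1.95 ± 0.18 under FICZ (adjusted p = 5.64e-05), and both held under all alternatives. Car1, the abundant absorptive cell marker, was lower in the same libraries, with 1673 and 1815 counts in WT DMSO and 309 and 432 in AHR KO DMSO. Of the 2 absorptive markers tested, it was the one called under DMSO, and the part of these cells in the difference was not tested.

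Slc44a2 had 799 and 830 counts in WT DMSO and 1226 and 1235 in AHR KO DMSO (log2 difference 0.60, adjusted p = 0.000427). Slc25a48 was higher in AHR KO under DMSO by 0.40 (adjusted p = 0.00135) and lower under FICZ by 0.63 (adjusted p = 1.83e-05). Slc6a14 had 1038 and 978 counts in AHR KO DMSO, above the 791 and 697 in WT DMSO (log2 difference 0.44, adjusted p = 0.0197). The amino acid carriers Slc38a6 and Slc7a6 were higher by 0.63 and 0.58, and reads of Slc38a6 may be shared with a transcript annotated to Rab3gap1 (97.1% identical over 1335 bases). For Slc7a6 the difference ran from 0.36 to 0.81 over the alternatives. Its call was lost with no filter, with robust eBayes and with only the groups compared. The metal transporter Slc39a14 was higher by 0.47 and the zinc transporter Slc30a4 by 0.39. The mitochondrial carriers Slc25a30 and Slc25a36, the latter for pyrimidine nucleotides, were both higher by 0.46. Lower in AHR KO were the apical sodium-proton exchanger Slc9a2 (log2 difference -0.59), Slc23a2 (-0.42), the vesicular ATP transporter Slc17a9 (-0.39), the glutamine transporter Slc38a1 (-0.34) and the neutral amino acid transporter Slc1a4 (-0.33). The total was 4 without AHR KO DMSO replicate 1, 6 without replicate 3 of that group, 7 without WT DMSO replicate 2 and 14 without WT DMSO replicate 3, with 3.55%, 3.05%, 4.37% and 4.59% of all genes called. Of the 18 named calls, 4 held under all alternatives in which they were tested, those of Slc5a1, Slc44a2 and Slc25a48 among them. The other 14 were lost without AHR KO DMSO replicate 1 (adjusted p 0.0522 to 0.255), and 12 of them without AHR KO DMSO replicate 3 and 12 without WT DMSO replicate 2 (up to 0.187 and 0.266). Without WT DMSO replicate 3, the calls of Slc1a4, Slc6a14, Slc17a9, Slc25a36, Slc27a1 and Slc38a1 were lost (0.105 to 0.146).

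Under FICZ, 26 members were called higher and 27 lower in AHR KO, 30.5% of the members against 20.0% of all genes tested (higher calls 14.9% against 9.48%, lower calls 15.5% against 10.5%). The groups did not overlap for 99 members (56.9%), against 47.2% of all genes. Besides Slc5a1, 3 carriers of low level were lower by more than 2-fold. Slc2a13, the proton-coupled myo-inositol transporter, had 73.9, 127 and 119.7 counts in WT FICZ and 49.6 and 15.95 in AHR KO FICZ (log2 difference -1.84). Slc8a1 had 94.5, 72.0 and 98.05 and then 38.1 and 16.2 (log2 difference -1.77), and Slc10a5 had 108.9, 99.8 and 106.1 and then 39.2 and 35.5 (log2 difference -1.47). Each had AHR KO FICZ libraries below all WT FICZ libraries, with the AHR KO mean under 50. Since they became members through the groups where they were higher, these values are a description. Without AHR KO FICZ replicate 3, the difference was -1.05 for Slc2a13, which was then no longer called (adjusted p = 0.106), and -1.18 for Slc8a1. Without AHR KO FICZ replicate 1 these were -2.63 and -2.37. Among the 168 members with a mean of 50 or more in every group, 25 were called higher and 23 lower under FICZ, and 17 higher and 6 lower under DMSO.

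Slc23a2 had 1926, 2066 and 2054 counts in WT FICZ and 1291 and 1075 in AHR KO FICZ (log2 difference -0.77, adjusted p = 0.000147), and Slc9a2 was lower by 0.78 (adjusted p = 0.00331). Slc17a9 and Slc22a5 were each lower by 0.49. Slc6a14 had 546, 612 and 515 counts in WT FICZ and 943 and 920 in AHR KO FICZ, without overlap (log2 difference 0.74, adjusted p = 0.000267). Slc25a33, another pyrimidine nucleotide carrier of mitochondria, was higher by 0.56 (adjusted p = 0.0045), although 14.9% of its exonic bases lie under an exon on the opposite strand. The thiamine transporter Slc19a2 was higher by 0.50 (adjusted p = 0.00123), Slc30a4 by 0.49 (adjusted p = 0.00212), Slc44a2 by 0.47 (adjusted p = 0.000281) and Slc39a14 by 0.43 (adjusted p = 0.00442). Among members named for their roles, Slc7a5 was higher by 0.38 (adjusted p = 0.0343) with Slc3a2 by 0.21 (adjusted p = 0.0163), and Slc4a4 by 0.34.

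Members called under both treatments numbered 20, which is 83.3% of those called under DMSO and 37.7% of those called under FICZ, close to the 83.9% and 38% over all genes tested. In 14 AHR KO was higher under both, in 5 it was lower under both, and Slc25a48 alone changed sign. The number called under FICZ was 22 without AHR KO FICZ replicate 3, 34 without AHR KO FICZ replicate 1 and 31 without WT FICZ replicate 3, with 10.4%, 15.2% and 14.1% of all genes called. Of 24 named calls, 9 were lost without AHR KO FICZ replicate 3 (adjusted p 0.059 to 0.369), that of Slc22a5 among them, and 15 held under all alternatives in which they were tested.

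**Figure D5:**
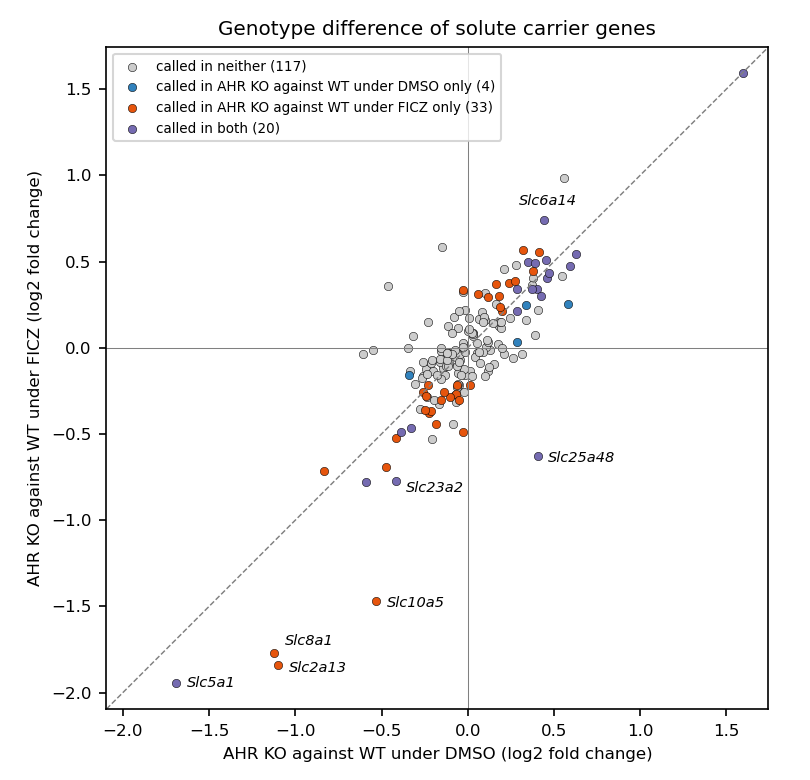
Log2 difference of AHR KO against WT under DMSO (horizontal axis) and under FICZ (vertical axis) for each of 174 members (points), coloured by the comparisons in which they were called, with a dashed line where both are equal. Slc5a1 (-1.69 and -1.95) lies at the lower end, and Slc25a48 is at 0.40 and -0.63.

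Other transporters and the genes with which carriers work were examined as lists chosen for their roles. Of 17 tested among partners, pumps and channels, 2 were called higher and 3 lower with FICZ in WT, and 2 and 1 in AHR KO. These are 5 and 3 of 17, near the 30.8% and 19.7% of all genes called. Slco4a1, an organic anion transporter, rose by 0.44 in WT and 0.43 in AHR KO, and the bile conjugate pump Abcc3 by 0.42 and 0.34. The chloride channel Cftr had 2013 and 2149 counts in WT DMSO and 1181, 1283 and 1244 in WT FICZ, a fall by 0.75 (adjusted p = 0.000271), and it fell by 0.46 in AHR KO (adjusted p = 0.00781). Between genotypes, 1 of this list was called higher and 2 lower in AHR KO under DMSO, and 4 higher and 3 lower under FICZ, against 9.05% and 20.0% of all genes. Abcb1a was lower by 0.82 under DMSO and 0.72 under FICZ, while Abcc4 was higher by 0.37 under both and Cftr by 0.54 under FICZ. Of 10 genes of the amino acid response, Sesn2 and Shmt2 were the ones called with FICZ in WT, both higher (0.40 and 0.22). These are 2 of 10, against 30.8% of all genes. Shmt2 was also the 1 gene of this list called in AHR KO, higher by 0.27 (adjusted p = 0.0188). The regulator Atf4 had a log2 change of -0.12 in WT and was not called. Between genotypes Vldlr was the 1 gene of this list called (log2 difference -0.26 under DMSO and -0.30 under FICZ). That is 1 of 10, against 9.05% and 20.0% of all genes. Of 8 genes tested for the handling of metals, the ferritin chains Ftl1 and Fth1 were the ones called in WT, both higher (0.60 and 0.21). That is 2 of 8, against 30.8% of all genes. Ftl1 was also the 1 metal gene called with FICZ in AHR KO, higher by 0.55 (adjusted p = 0.00143). The metallothionein Mt1, a zinc-responsive gene, changed by 0.17 with FICZ in WT and by 0.31 in AHR KO, without a call. Between genotypes, with 9.05% and 20.0% of all genes called, 2 metal genes were called higher and 1 lower in AHR KO under each treatment. These were Mt2, higher by 0.42 under DMSO and 0.46 under FICZ, and the STEAP family genes Steap1, higher by 0.95 and 1.32, and Steap4, with log2 differences of -1.60 and -0.96.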

How the data were processed

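RNA was sequenced from 9 libraries by the authors, with a stranded, ribosomal RNA-depleted kit. The table the authors deposited holds normalised counts, a signal that need not be whole. The submitters' processing notes name STAR 2.5.2a, RSEM 1.2.31, DESeq2 1.16.1 and GRCm38, while the study's methods name summarizeOverlaps with mm10. Which of these made the table was not settled. Reads per library were not recovered from these values, so no counting intervals are given. All later steps were computed here. Of 48795 identifiers, 48435 (99.3%) matched GENCODE M21.

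Values were tested as log2(value + 1), a scale on which changes of low genes are understated. Genes with a mean of 10 or more (12741) were fitted with limma 3.58.1 (R 4.3.3, eBayes with trend, two-sided) to 4 groups, and calls were made at an adjusted p-value (Benjamini-Hochberg) under 0.05. The fit was tested on simulated data with known changes. The labels do not say for each library that it came from a separate animal, so p-values measure the spread between these libraries. Members, lists and tests were chosen with earlier results of these data known. Members named were up to 12 called in each direction per comparison, the 2 highest per kilobase in each transport class and 25 chosen for their roles, of which some are not reported here. Transcripts were compared with blastn 2.17.0 to find near copies (97% identity over 200 bases), and promoters and motifs came from RefSeq. Alternatives were other pseudocounts, filters and scalings, robust eBayes, fits to only the groups compared, removal of a GC and length trend, a block for the replicate number, and the omission of single libraries.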

Additional observations from a re-analysis of the deposited data

Results flagged for a closer look

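The FICZ change of Slc25a48 differed between the genotypes by 1.03 on the log2 scale (limma interaction, adjusted p = 0.000155), with counts of 2174 and 2121 under DMSO and 4161, 4428 and 4332 under FICZ in WT, against 2865 and 2821 and then 2782 and 2795 in AHR KO. WT libraries with FICZ all exceeded those with DMSO, while both AHR KO libraries with FICZ were slightly below those with DMSO. Groups here hold 2 or 3 libraries, too few to look for single libraries that stand apart within a group.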

How the results depend on the processing

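No named call changed direction under any alternative, and of 84 followed, 33 kept their call in all and 51 lost it in some, 28 of them with the GC and length trend removed. With that trend removed the members called in AHR KO with FICZ were 7 (4.02%, against 5.45% of all genes). With the trend removed and the replicate block added they were 5 in AHR KO and 38 in WT. These are 2.87% and 21.8% of the members, against 4.16% and 13.5% of all genes. The replicate block alone gave 59 in WT and 39 in AHR KO (56 and 34 of them among the 69 and 39). That is 33.9% and 22.4% of the members, against 24.6% and 19% of all genes. It left the interaction at 1 member. Samples with the same number did not deviate together (r = 0.0513 in WT and 0.0346 in AHR KO), so the numbers were not taken to pair them. Leaving out 1 library gave 37 to 70 called members with FICZ in WT, 8 to 43 in AHR KO, 4 to 30 between genotypes under DMSO and 22 to 52 under FICZ. Where this left a group with 1 library, that library was assumed to vary like the other groups. Quantile normalization gave 30 higher and 21 lower members between genotypes under FICZ, and 35 higher and 2 lower with FICZ in AHR KO. In these fits 29.3% and 21.3% of the members were called, against 20.3% and 18.5% of all genes. The other alternatives left each total of members within 1.5 times its value. By direction, the lower calls with FICZ in AHR KO were 2 with no filter and with only the groups compared, and the latter fit gave 31 members between genotypes under DMSO, 16 of them lower. The interaction needs all 4 groups and was not fitted on fewer. Groups of 2 limit every comparison.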
